A study of Mus musculus with 6 samples.

Results

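The 33 genes described here encode the enzymes and transporters of fatty acid oxidation, their transcriptional regulators and genes known to respond to the peroxisome proliferator-activated receptors (PPARs). They were chosen by gene symbol, and all 33 were found among the 18476 genes of the deposited table. Their transcripts were counted in bulk RNA-seq libraries of femoral arteries from C57BL/6 wild-type mice, taken 3 days after a wire had damaged the vessel. Arteries in 3 libraries had received perivascular saline and those in 3 libraries perivascular vasostatin-2, a peptide fragment of chromogranin A. Both groups thus carried the same injury and genotype. All 6 libraries were treated as 1 batch, and a batch difference between them was not tested. Neither the age nor the sex of the mice is stated in the labels, and uninjured vessels were not analysed here. As cell type the labels give vascular smooth muscle cells, whereas the protocol describes RNA from the injured artery itself.

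Fatty acids enter the cell through carriers such as CD36, are joined to coenzyme A and are passed into the mitochondrion on carnitine. There a spiral of dehydrogenation, hydration, a further dehydrogenation and thiolysis shortens the chain and feeds electrons to the respiratory chain through the electron transfer flavoprotein. PPARs bind DNA with retinoid X receptors, respond to fatty acids and drive many of these genes, while the PGC-1 proteins act as their coactivators. In the arterial wall PPARs are known mainly for their roles in macrophages, smooth muscle and endothelium, and perivascular fat is rich in the oxidation enzymes.

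None of the 33 genes passed the test for a difference between vasostatin-2 and saline. By the quasi-likelihood test of edgeR, with p-values adjusted by Benjamini-Hochberg over all genes, 0 of the 33 were called, against a background of 0.0% of 14557 genes tested, and the lowest adjusted p among the 33 was 0.687. With no adjustment, 1 of the 33, Angptl4, had an edgeR p below 0.05, against 7.14% of all genes tested, of which 3.29% were higher and 3.85% lower with vasostatin-2. DESeq2 also called 0 of the 33, against 0.809% of the genes for which it gave an adjusted p. With limma-voom and quality weights 3 of the 33, Acaa2, Acads and Angptl4, had an unadjusted p below 0.05, against 10.6% of all genes. In 0 of the 33 did the libraries of the groups fail to overlap in normalised read count, against 12.8% of all genes tested. Most of the genes moved together within the saline group instead, low in replicate 1 and high in replicate 2.

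Total estimated counts lay between 19333730 and 20105995 per library. All 33 genes passed the filter on low counts, the lowest count of a member in any library being 16, for Ppargc1a. Values are given as CPM, counts scaled to a common library size, for comparisons between libraries, and as the authors' TPM, which takes gene length into account, for comparisons between genes. Transcripts of several cell types were present in both groups. Summed over 10 smooth muscle markers the level was between 1042 and 1994 CPM with saline and between 1033 and 2476 CPM with vasostatin-2. Over 10 macrophage markers it was between 6883 and 10083 CPM with saline and between 8754 and 9244 CPM with vasostatin-2. Skeletal muscle markers stood out in vasostatin-2 replicate 3, at 1274 CPM against values from 83.3 to 144 CPM elsewhere, and red cell markers in saline replicate 2, at 12367 CPM against values from 311 to 2507 CPM. In whole tissue, fewer cells of a type and less RNA per cell cannot be told apart.

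Per length, the most abundant of the 33 transcripts was that of Ucp2, a mitochondrial carrier of the uncoupling protein family that is common in leukocytes, at 646 to 1109 TPM over the 6 libraries. Cd36, the fatty acid and lipoprotein receptor, followed at 309.6 to 759 TPM, a range that overlapped that of Ucp2, then Angptl4, a secreted inhibitor of lipoprotein lipase, at 152 to 319 TPM, and Acsl1, which activates long-chain fatty acids with coenzyme A, at 111 to 294 TPM. The ranges of Angptl4 and Acsl1 overlapped. The mitochondrial enzymes of the spiral formed a middle band, with mean TPM values between 34.1 for Acads and 154 for Hadha. At the bottom, 8 genes had a mean below 10 TPM, among them the regulators Ppargc1a at 0.25 to 1.08 TPM, Ppara at 0.62 to 1.16 TPM and Ppargc1b at 0.72 to 1.39 TPM. Together the 33 genes made up 0.289%, 0.436% and 0.326% of all TPM in saline replicates 1, 2 and 3, and 0.350%, 0.369% and 0.321% in vasostatin-2 replicates 1, 2 and 3. Both the lowest and the highest of these shares were thus in saline libraries.

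In 3 pairs of related genes, the same form dominated in every library. This was not so for Ppargc1b and Ppargc1a, both low, whose TPM ratio ran from 0.986 to 4.8. Cpt1a, the liver-type carnitine palmitoyltransferase that admits long-chain fatty acids to the mitochondrion, exceeded the muscle-type Cpt1b by 21.7 to 28.2 times in TPM. That TPM ratio was 27.0, 25.9 and 25.8 for saline and 21.7, 28.2 and 23.8 for vasostatin-2, so that the groups overlapped. The library rich in skeletal muscle markers, vasostatin-2 replicate 3, had 4.05 TPM of Cpt1b, against 3.31 to 3.84 TPM in the other 5 libraries. Ucp2 exceeded Ucp3, the uncoupling protein of skeletal muscle and brown fat, by 98.5 to 243 times in TPM. Ppard, the broadly expressed PPAR, exceeded Ppara, best known from liver, by 27.0 to 65.3 times in TPM. Pparg, the PPAR of adipocytes and of many macrophages, is not among the 33 genes; Ppard was at 0.284 to 0.904 of its TPM level.

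The element that PPARs bind with retinoid X receptors, known as DR1, is a direct repeat of the half-site AGGTCA with any 1 base between the copies. Promoters of 300 bases, from 250 before to 50 after the start, were found for 27 of the 33 genes in the RefSeq table of build GRCm38.p6, the build the submitters name. Angptl4, Cpt1b, Crat, Acaa2, Decr1 and Ppargc1b had none there and were not searched. This consensus of 13 bases, chosen for the receptors that name the group of genes, was searched on both strands, with overlapping matches allowed. No promoter of the 27 held it with at most 1 mismatch, as 0.64% of 27025 genes did. With at most 2 mismatches it was found in 5 of the 27, against 4.4% of all genes, and these 5 windows are shown because they carry the closest matches among the 27 promoters searched. An exact single half-site, AGGTCA, on either strand was found in 6 of the 27, against 18.1% of all genes. Each window is given 5′ to 3′ on the strand of its gene, with the match in capitals and 24 bases on each side.
Cd36: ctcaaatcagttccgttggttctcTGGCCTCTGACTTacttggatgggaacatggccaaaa
Echs1: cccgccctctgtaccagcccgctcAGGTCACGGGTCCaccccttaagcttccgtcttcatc
Etfa: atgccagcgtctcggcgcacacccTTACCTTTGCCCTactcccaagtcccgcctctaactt
Slc25a20: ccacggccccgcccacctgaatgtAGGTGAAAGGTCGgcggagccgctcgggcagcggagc
Ucp3: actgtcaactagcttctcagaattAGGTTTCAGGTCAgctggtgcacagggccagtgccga

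The windows lie at chr5:17835923-17835983 for Cd36, chr7:140116468-140116528 for Echs1 and chr9:55512284-55512344 for Etfa, all on the minus strand. Those of Slc25a20 and Ucp3 lie on the plus strand at chr9:108662118-108662178 and chr7:100472916-100472976. The Cd36 window belongs to a start inside the gene, which runs from 17781690 to 17888959 in the deposited coordinates, and not to its outer end. Read in the orientation of the consensus and counted from 1 at its 5′ end, with the base of the consensus first, the Cd36 match has G2A and T11C, and that of Echs1 A8G and A13C. The Etfa match has T4G and C12A, that of Slc25a20 C5G and A13G, and that of Ucp3 C5T and A6T. The matches of Cd36 and Etfa are on the strand opposite to their gene. The 5 genes did not share a direction between groups, with log2 fold changes of −0.03 for Cd36, 0.09 for Echs1, 0.04 for Etfa, −0.11 for Slc25a20 and 0.01 for Ucp3. A match in letters is a description and not evidence of binding.

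Several of the genes are neighbours. Ucp3 and Ucp2 lie in tandem on chromosome 7, from 100472991 to 100486432 and from 100493337 to 100499629 in the coordinates of the deposited table. Hadha and Hadhb, whose products form 1 enzyme complex, lie head to head on chromosome 5, with starts 273 bases apart in those coordinates. The promoter of Hadhb, at chr5:30155003-30155302 on the plus strand, is shown because it fills most of the space between these starts, and capitals mark the first 50 transcribed bases of Hadhb.
Hadhb: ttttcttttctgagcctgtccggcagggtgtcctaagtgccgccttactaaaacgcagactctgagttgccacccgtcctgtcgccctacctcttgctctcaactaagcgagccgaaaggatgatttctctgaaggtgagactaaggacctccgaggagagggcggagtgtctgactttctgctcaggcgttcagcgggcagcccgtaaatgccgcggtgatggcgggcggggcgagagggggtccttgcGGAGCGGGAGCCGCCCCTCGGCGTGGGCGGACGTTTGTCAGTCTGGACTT

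Hadha and Hadhb were singled out for their shared complex. Hadha was at 186, 218 and 200.3 CPM with saline and at 206, 212 and 201 CPM with vasostatin-2, and Hadhb at 79.7, 120.2 and 99.5 CPM with saline and at 108, 115 and 100.5 CPM with vasostatin-2. Both were thus lowest in saline replicate 1 and highest in saline replicate 2. The TPM ratio of Hadha to Hadhb was 1.74 in saline replicate 1 and between 1.35 and 1.50 in the other 5 libraries. The labels do not say whether reads were counted by strand, and 8 of the 33 genes overlap a protein-coding gene on the opposite strand in GENCODE M21, so reads of such pairs may not have been told apart. For 4 of the 33, Crat, Eci2, Ppargc1a and Ppargc1b, the strand in the deposited table differs from that in GENCODE M21.

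**Figure D1:**
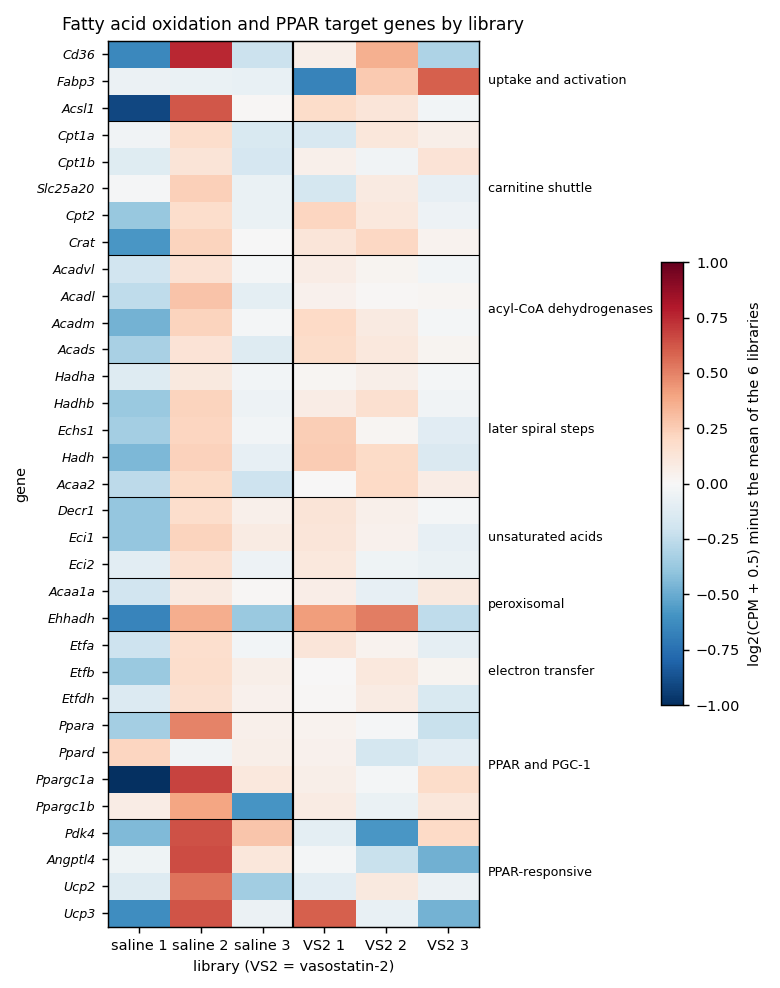
Heat map of the 33 genes (rows, grouped by role) in the 6 libraries (columns). Colour shows log2(CPM + 0.5) minus that gene's mean over the 6 libraries, from blue (low) to red (high). Saline replicate 1 is mostly blue and saline replicate 2 mostly red, while the vasostatin-2 columns are paler; 23 genes were lowest in saline replicate 1 and 23 were highest in saline replicate 2.

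The saline libraries set the range of the group of genes. Saline replicate 1 was the lowest of the 6 libraries in 23 of the 33 genes, where it was lowest in 21.1% of all genes tested. Saline replicate 2 was the highest in 23 of the 33, where it was highest in 22.5% of all genes tested. Within the saline group, replicate 1 was lowest and replicate 2 highest in 26 of the 33, against 21.1% of all genes. The median deviation of the 33 genes from their own means, in log2(CPM + 0.5), was −0.32, 0.22 and −0.03 in saline replicates 1, 2 and 3 and 0.07, 0.06 and −0.03 in vasostatin-2 replicates 1, 2 and 3. Over all genes tested the same median was within 0.003 of 0 in every library. In 32 of the 33 genes the SD between libraries was larger with saline than with vasostatin-2, as it was in 65.8% of all genes, and Fabp3 was the exception. The median SD of the 33 was 0.29 with saline and 0.11 with vasostatin-2 on that log2 scale, while over all genes it was 0.15 and 0.11. In 18 of the 33 genes every vasostatin-2 library lay inside the range of the saline libraries, against 29.6% of all genes tested.

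Sums of adipocyte, brown fat, macrophage and red cell markers were, like most of the 33 genes, lowest in replicate 1 and highest in replicate 2 of the saline group, and the sums of the other 6 marker lists were not. Summed over 12 adipocyte markers the level was 3634, 8032 and 7061 CPM in saline replicates 1, 2 and 3 and 7961, 5790 and 6068 CPM in vasostatin-2 replicates 1, 2 and 3. All 12 were lowest in saline replicate 1, 6 were highest in saline replicate 2, and none was at 0 throughout. The 10 macrophage markers summed to 6883, 10083 and 7273 CPM with saline and 8754, 9244 and 8788 CPM with vasostatin-2, a sum that was lowest in saline replicate 1 and highest in saline replicate 2, although only 4 of the 10 were lowest in the first and 4 highest in the second. Of the 10 neutrophil and 8 red cell markers, 8 and 8 were highest in saline replicate 2. In saline replicates 1, 2 and 3 the neutrophil sum was 428, 486 and 294 CPM, the smooth muscle sum 1602, 1042 and 1994 CPM, the endothelial sum 2120 CPM, 2015 CPM and 2390 CPM and the Schwann cell sum 173, 193 and 893 CPM. The sum of the 8 fibroblast markers ran the other way, although 1 of the 8 was lowest in saline replicate 1. That sum was 45325, 24429 and 32166 CPM in saline replicates 1, 2 and 3 and between 28294 and 35114 CPM with vasostatin-2. Markers of brown fat were near the floor, with a sum of 8.34 to 17.0 CPM over 6 genes in all libraries. The part of fat, macrophage, fibroblast or blood content in the levels of the 33 genes was not tested.

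**Figure D2:**
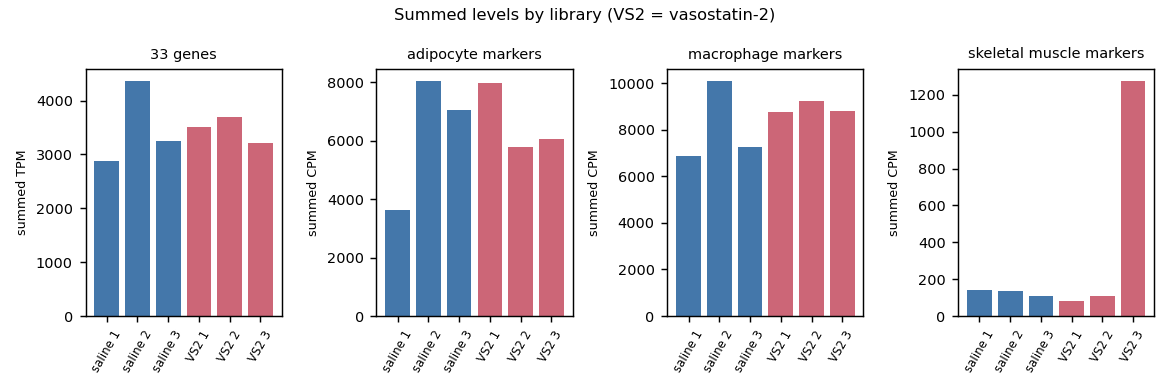
Bars give, for each library, the summed TPM of the 33 genes and the summed CPM of 12 adipocyte, 10 macrophage and 15 skeletal muscle markers, with saline in blue and vasostatin-2 in red. The 33 genes sum to 2887 TPM in saline replicate 1 and 4362 TPM in saline replicate 2, and the muscle markers reach 1274 CPM in vasostatin-2 replicate 3.

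The uptake and activation genes bring fatty acids into the cell and prime them for use. Cd36 was at 410.4, 1087 and 555 CPM in saline replicates 1, 2 and 3 and, with vasostatin-2, at 670.4, 823 and 519 CPM. All vasostatin-2 libraries lay inside the saline range, which spanned a factor of 2.65. The group means were 684 ± 356 CPM with saline and 671 ± 152 CPM with vasostatin-2 (SD, n = 3 each). The log2 fold change of Cd36 was −0.03 (SE 0.37), and it was 0.48 without saline replicate 2 and −0.29 without saline replicate 1. Acsl1, singled out after its values were seen, was at 196, 566 and 370.3 CPM with saline and at 418, 401 and 361 CPM with vasostatin-2. Its saline libraries thus differed by a factor of 2.89 and its vasostatin-2 libraries by 1.16. Between groups Acsl1 had a log2 fold change of 0.06 (SE 0.34), and −0.25 without saline replicate 1. Fabp3, the fatty acid-binding protein of heart and skeletal muscle, went against this order. It was at 1.67, 1.65 and 1.64 CPM with saline and at 0.919, 2.20 and 2.91 CPM with vasostatin-2, the highest value being in the library rich in skeletal muscle markers. The log2 fold change of Fabp3, 0.28 (SE 0.40), became −0.08 without that library.

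The carnitine shuttle genes carry acyl groups across the mitochondrial membranes. Cpt1a was at 188, 218 and 173 CPM with saline and at 173, 209 and 201 CPM with vasostatin-2, so that the groups covered nearly the same range. For Cpt1a the log2 fold change was 0.01 (SE 0.11), and it lay between −0.06 and 0.10 with any 1 library left out. Cpt1b was at 4.70, 5.68 and 4.53 CPM with saline and at 5.36, 5.01 and 5.72 CPM with vasostatin-2, a log2 fold change of 0.11 (SE 0.15). Crat, which exchanges short acyl groups between coenzyme A and carnitine and was singled out after its values were seen, was at 71.5, 126 and 107 CPM with saline and at 117, 124 and 110.1 CPM with vasostatin-2. For Crat the log2 fold change was 0.21 (SE 0.19), but 0.01 without saline replicate 1. Cpt2, which re-forms acyl-coenzyme A inside the mitochondrion, and Slc25a20, the carnitine-acylcarnitine carrier, had log2 fold changes of 0.17 and −0.11. None of the 5 reached an unadjusted p of 0.05 in edgeR, the lowest being 0.293 (adjusted p = 0.848), for Cpt2.

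None of the genes of the mitochondrial spiral passed the test. The acyl-coenzyme A dehydrogenases Acadvl, Acadl, Acadm and Acads, which take chains of very long to short length, had log2 fold changes from 0.03 to 0.20, and all 4 were lowest in saline replicate 1. Acadm, singled out after its values were seen, was at 69.8, 113 and 95.6 CPM with saline and at 111, 103 and 95.6 CPM with vasostatin-2. Hadha and Hadhb, the subunits of the trifunctional protein that performs the later steps on long chains, had log2 fold changes of 0.04 and 0.11. Echs1, the short-chain hydratase, Hadh, the matching dehydrogenase, and Acaa2, a thiolase, had log2 fold changes of 0.09, 0.19 and 0.17. All 5 of these were lowest in saline replicate 1, and the lowest unadjusted p among them in edgeR was 0.227 (adjusted p = 0.818), for Acaa2. Decr1, Eci1 and Eci2, which prepare unsaturated chains for the spiral, had log2 fold changes from −0.00 to 0.10. The electron transfer genes Etfa, Etfb and Etfdh, which pass electrons from the dehydrogenases to ubiquinone, had log2 fold changes from −0.05 to 0.07.

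Peroxisomes shorten chains that mitochondria do not accept. Ehhadh, the peroxisomal bifunctional enzyme and a well-known PPARα target in liver, had the largest positive log2 fold change of the 33 genes and is named for that reason. It was at 7.28, 15.3 and 9.02 CPM with saline and at 15.9, 17.0 and 9.80 CPM with vasostatin-2, with vasostatin-2 replicate 3 beside the lower saline libraries. Between groups it had a log2 fold change of 0.44 (SE 0.32; edgeR adjusted p = 0.815), 0.81 without saline replicate 2 and 0.23 without saline replicate 1. Acaa1a, the peroxisomal thiolase, also singled out, was at 53.9, 65.7 and 62.3 CPM with saline and at 64.6, 58.2 and 66.0 CPM with vasostatin-2. The difference of Acaa1a was 0.05 on the log2 scale (SE 0.10). Acaa1a has a close paralogue, Acaa1b, and the labels name no counting tool, so reads that the pair share leave its count uncertain.

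**Figure D3:**
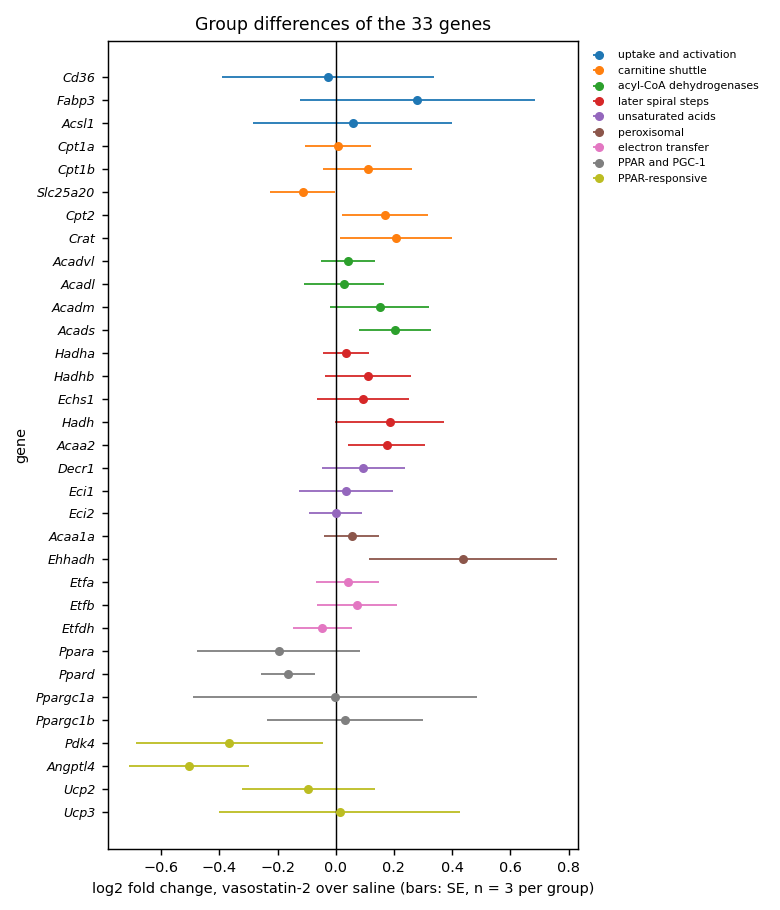
Log2 fold change of each of the 33 genes, vasostatin-2 over saline, with its SE (edgeR, n = 3 per group), coloured by role. Most points sit within one SE of 0; Angptl4 at −0.50 and Ehhadh at 0.44 are the extremes.

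None of the regulators passed the test either. Ppard was at 61.5, 51.7 and 55.0 CPM with saline and at 54.5, 46.7 and 49.0 CPM with vasostatin-2, with overlap between groups. With vasostatin-2 over saline, Ppard had a log2 fold change of −0.16 (SE 0.09; edgeR adjusted p = 0.757). It was the one member that was highest in saline replicate 1. Ppara was at 2.12, 4.18 and 2.94 CPM with saline and at 2.91, 2.80 and 2.35 CPM with vasostatin-2, a log2 fold change of −0.20 (SE 0.28) that became 0.09 without saline replicate 2. Ppargc1a, the coactivator PGC-1α, was at 0.808, 3.72 and 2.34 CPM with saline and at 2.25, 2.102 and 2.50 CPM with vasostatin-2. The vasostatin-2 libraries of Ppargc1a were close to each other, while its saline libraries spanned a factor of 4.60. Its log2 fold change of −0.00 (SE 0.49) lay between −0.41 and 0.53 with any 1 library left out, and the first came without saline replicate 1 and the second without saline replicate 2. Ppargc1b, its relative PGC-1β, was at 5.91, 7.49 and 3.54 CPM with saline and at 5.92, 5.31 and 6.07 CPM with vasostatin-2. For Ppargc1b the difference on the log2 scale was 0.03 (SE 0.27), 0.29 without saline replicate 2 and −0.21 without saline replicate 3.

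Genes known to respond to PPARs and to a switch of fuel had log2 fold changes from −0.50 to 0.01. Angptl4, which limits the release of fatty acids from lipoproteins, was at 189.6, 308 and 211 CPM with saline and at 192, 167 and 139.7 CPM with vasostatin-2. Only vasostatin-2 replicate 1 overlapped the saline group, just above saline replicate 1. The means were 236 ± 62.9 CPM with saline and 166 ± 26.4 CPM with vasostatin-2 (SD, n = 3 each). The log2 fold change of Angptl4 was −0.50 (SE 0.21; edgeR unadjusted p = 0.0444, adjusted p = 0.687). It was −0.64 without saline replicate 1 and −0.27 without saline replicate 2. The authors' deposited table gives Angptl4 a log2 fold change of −0.50, a p-value of 0.0159 and a q-value of 0.560. Its q-value is the lowest of the 33 in the authors' deposited table, in which 98 of 18401 genes, or 0.533%, have a q-value below 0.05. Pdk4, the kinase that closes pyruvate dehydrogenase when fat is burned, was at 7.33, 16.0 and 12.4 CPM with saline and at 9.45, 6.61 and 11.7 CPM with vasostatin-2, a log2 fold change of −0.37 (SE 0.32). That of Pdk4 was −0.62 without saline replicate 1 and −0.09 without saline replicate 2.

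Ucp2 was at 555, 882 and 476 CPM with saline and at 564, 647 and 579.98 CPM with vasostatin-2, so that every vasostatin-2 library lay inside the saline range. For Ucp2 the log2 fold change was −0.10 (SE 0.23), and 0.21 without saline replicate 2. Ucp3 was at 3.59, 9.20 and 5.53 CPM with saline and at 8.99, 5.46 and 4.03 CPM with vasostatin-2. The value in the library rich in skeletal muscle markers was the lowest of the vasostatin-2 group. Its log2 fold change of 0.01 (SE 0.41) lay between −0.36 and 0.43 with any 1 library left out, without vasostatin-2 replicate 1 and without saline replicate 2 in turn.

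**Figure D4:**
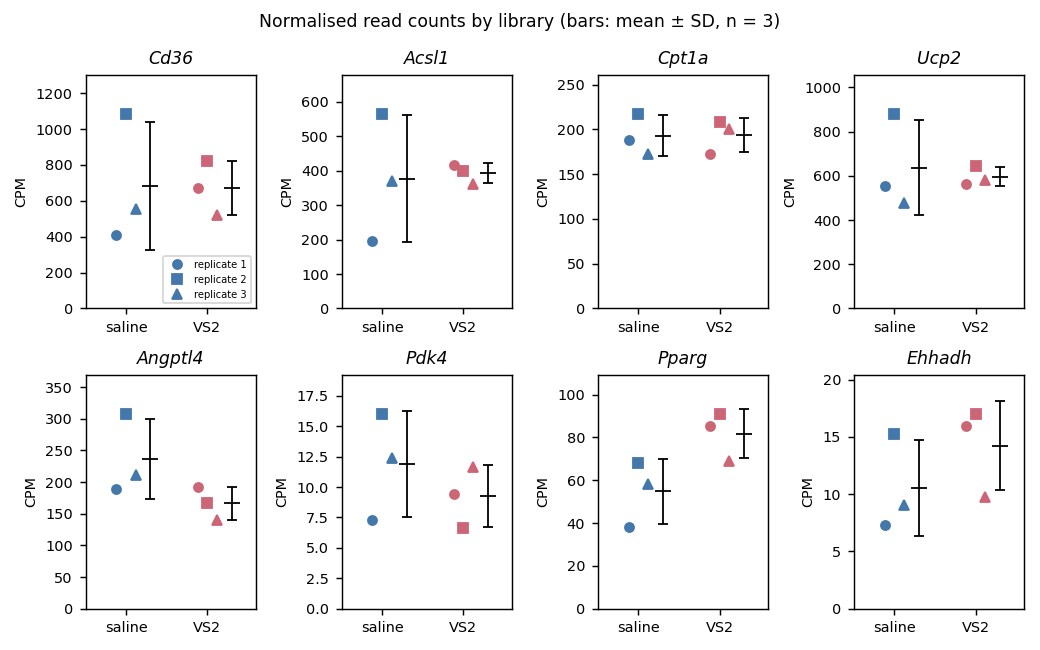
CPM of 8 genes in each library, with saline in blue, vasostatin-2 (VS2) in red, symbols for the replicate numbers and bars for the mean ± SD (n = 3). Cd36, Acsl1 and Ucp2 are spread wider in saline than with vasostatin-2, Angptl4 overlaps through 1 library, and Pparg, which is not among the 33 genes, shows no overlap between groups.

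The direction of the 33 genes as a group depended on the saline libraries. With all 6 libraries 23 of the 33 had a log2 fold change above 0, with a median of 0.04, where 49.8% of all genes tested were above 0 and their median was −0.0007. In 29 of the 33 genes the log2 fold change was within 0.25 of 0, as in 79.4% of all genes tested. Saline replicate 1 was the lowest library in 23 of the 33 genes and saline replicate 2 the highest in 23. Leaving out the first thus raises the saline mean of those genes, and leaving out the second lowers it. The directions in these fits partly restate that order. Without saline replicate 1 only 9 of the 33 were above 0 and the median was −0.05. Without saline replicate 2, 29 of the 33 were above 0 and the median was 0.21, while the median over all genes tested was 0.002. In that fit 6 genes had an unadjusted p below 0.05 in edgeR, 18.2% of the 33 against 11.2% of all genes tested, and all 6 were higher with vasostatin-2. They were Acaa2, Acads, Ehhadh, Acadl, Cpt2 and Hadhb, with log2 fold changes between 0.20 and 0.81, and the lowest adjusted p among them was 0.284, in a fit that called 0.0136% of all genes. Leaving out any of the other 4 libraries gave a median between 0.02 and 0.07.

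**Figure D5:**
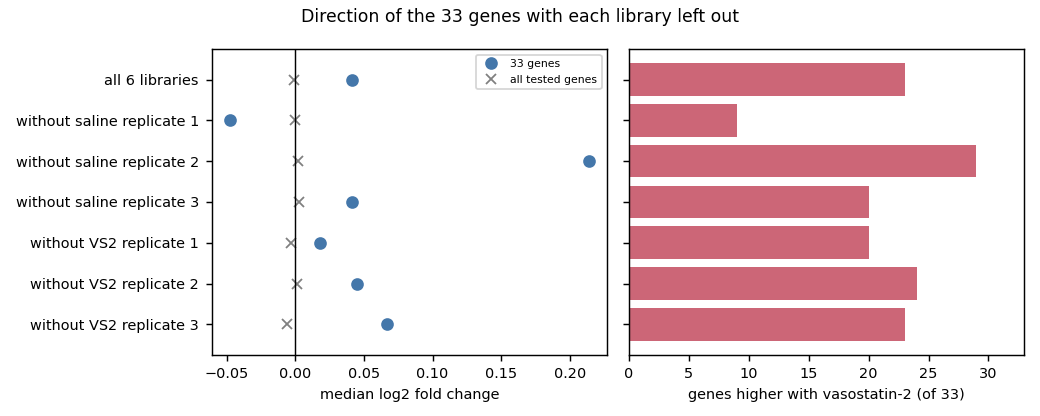
Left, median log2 fold change (vasostatin-2 over saline) of the 33 genes (circles) and of all genes tested (crosses) with all 6 libraries and with each library left out. Right, the number of the 33 genes above 0. The median of the 33 is −0.05 without saline replicate 1 and 0.21 without saline replicate 2, and the crosses stay near 0.

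Related genes of lipid use and PPAR signalling outside the 33 were read in the same way. In a list of 67 such genes 62 passed the filter on low counts, and 0 were called by edgeR and 1 by DESeq2. Over all genes edgeR called 0.0%, and DESeq2 0.809% of those for which it gave an adjusted p. At an unadjusted p of 0.05 there were 3, or 4.84%, against 7.14% of all genes tested, 1 higher and 2 lower. The single higher one was Pparg, and Pdk1 was among the lower ones.

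Pparg was at 38.3, 68.2 and 58.3 CPM with saline and at 85.3, 91.0 and 68.8 CPM with vasostatin-2. The groups did not overlap, as in 12.8% of all genes tested, although saline replicate 2 and vasostatin-2 replicate 3 were almost level. The log2 fold change of Pparg was 0.57 (SE 0.22, edgeR unadjusted p = 0.0336, adjusted p = 0.681, DESeq2 adjusted p = 0.395), and 0.37 without saline replicate 1. Pdk1, the pyruvate dehydrogenase kinase that hypoxia induces, was at 39.6, 43.0 and 27.457 CPM with saline and at 26.4, 23.6 and 27.453 CPM with vasostatin-2, so that the groups touched. The log2 fold change of Pdk1 was −0.51 (SE 0.17, edgeR unadjusted p = 0.0214, adjusted p = 0.657, DESeq2 adjusted p = 0.348). Plin2, a lipid droplet coat protein that was singled out with Lpl after their values were seen, was at 310.02, 787 and 325 CPM with saline and at 356, 594 and 468 CPM with vasostatin-2. Lpl, lipoprotein lipase, was at 445, 1270.1 and 694 CPM with saline and at 877, 1083 and 789.9 CPM with vasostatin-2.

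Of the 33 genes, 17 belong to fatty acid degradation and 13 to PPAR signalling in the deposited pathway annotation, with 8 in both and 11 in neither. Of the 40 genes tested in fatty acid degradation 33 had a log2 fold change above 0, against 49.8% of all genes tested. The median of the 40 was 0.10, against −0.0007 over all genes tested. At an unadjusted p below 0.05 in edgeR there was 1 gene, or 2.5%, against 7.14% of all genes tested. That gene was Acat2, a cytosolic thiolase of sterol synthesis. Without saline replicate 1 the median was −0.01, with 19 of the 40 above 0. Without saline replicate 2 it was 0.20, with 35 of the 40 above 0. In that fit 9 had an unadjusted p below 0.05 in edgeR, or 22.5% against 11.2% of all genes. These 9 include Acaa2, Acads, Ehhadh, Acadl, Cpt2 and Hadhb, the same 6 of the 33 genes given above for that fit, so the counts are not separate. Of the 64 tested in PPAR signalling, 6 or 9.38% had an unadjusted p below 0.05, against 7.14% of all genes tested. That number was 14 of 64, among them Acadl, Cpt2 and Ehhadh of the 33, with saline replicate 2 left out. The share was 21.9%, against 11.2% of all genes in that fit. With saline replicate 1 left out the number was 10 of 65, or 15.4% against 7.14% of all genes. It was 3 of 66, or 4.55% against 3.36% of all genes, when vasostatin-2 replicate 2 was omitted. With all libraries the 4 higher ones were Slc27a6, Hmgcs1, Cyp27a1 and Pparg, and Angptl4 was among the 2 lower ones. Slc27a6, a fatty acid transport protein that was singled out after its values were seen, was at 1.52, 1.86 and 1.15 CPM with saline and at 3.27, 3.55 and 3.21 CPM with vasostatin-2. The groups did not overlap, as in 12.8% of all genes tested. The log2 fold change of Slc27a6 was 1.15 (SE 0.23, edgeR adjusted p = 0.458, DESeq2 adjusted p = 0.0311, limma-voom adjusted p = 0.200). It lay between 0.99 and 1.33 with any 1 library left out. DESeq2 called 2 of the 64 genes of PPAR signalling, against 0.809% of all genes for which it gave an adjusted p.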

How the data were processed

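RNA was extracted from injured femoral arteries, enriched with oligo(dT) beads and sequenced on a BGISEQ instrument, per the labels' protocols. HISAT2 2.1.0 and DESeq2 1.26.0 were used on build GRCm38.p6, per the submitters' processing notes, which name no counting tool. The deposited table holds, per the file headers, estimated counts (65.6% whole), TPM values, and the authors' log2 fold changes with p-values and q-values. Mapping of libraries to groups follows the labels.

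Estimated counts were rounded. Genes were filtered with filterByExpr, leaving 14557, scaled by TMM (factors 0.985 to 1.01) and tested in edgeR 4.0.16 (R 4.3.3) by robust quasi-likelihood with treatment as the only term and Benjamini-Hochberg adjustment over all genes. SEs were derived from the fold change and the F statistic. Of the fits, only the edgeR test was tried on simulated data. In all 18 alternatives were run, with DESeq2 1.42.0, limma 3.58.1, other scalings and filters, a replicate block and libraries left out. Replicates are described as biological, and p-values measure the spread between these samples. Between libraries of one group chi-square per degree of freedom was 15.6 to 80.1, so none was taken as a duplicate. CPM values use scaled library sizes.

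The genes and lists were chosen with earlier results of these data known. Values in each library are given for genes past an unadjusted p of 0.05 or without overlap, the carnitine gate, the PPAR and PGC-1 genes, Pdk4, Angptl4, the uncoupling proteins, Cd36 and Fabp3; others are named in the text as singled out. Some results for related genes are not reported here.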

Additional observations from a re-analysis of the deposited data

How the results depend on the processing

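None of the 33 genes was called under any of the 18 alternatives. Over all genes edgeR called 0 (1040 at an unadjusted p of 0.05), DESeq2 called 113 and limma-voom 0, and leaving out single libraries gave 0 to 2 in edgeR. At an unadjusted p of 0.05 the 33 genes gave 3 with limma-voom, 0 with the replicate block and 0 without both replicates 3. In those fits 10.6%, 6.11% and 4.92% of all genes passed. With single libraries left out the 33 genes gave 0 to 6. The 6 came without saline replicate 2, or 18.2% against 11.2% of all genes. The 0 came without vasostatin-2 replicate 2 or 3, where 3.36% and 4.74% of all genes passed. The related genes gave 6 of 62 with limma-voom, or 9.68% against 10.6% of all genes. With single libraries left out they gave 1 to 13. The 13 were of 62, without saline replicate 2, or 21.0% against 11.2% of all genes. The 1 was of 62, without vasostatin-2 replicate 2, or 1.61% against 3.36% of all genes. The median log2 fold change of the 33 genes lay between −0.048 and 0.214 with single libraries left out.

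Of the 15 of these genes recomputed singly, Angptl4, Ppard, Pdk4, Ehhadh and Crat kept their sign under all 18 alternatives. Ppargc1a was 0.231 with limma-voom, 0.091 with log2(TPM + 1), 0.291 with log2(TPM + 0.1) and 0.169 with the replicate block. Cd36 was 0.280, 0.061, 0.061 and 0.068 in the same order, and Ucp2 was 0.130 with limma-voom. Without both replicates 3, Cpt1a was −0.091, Cpt1b −0.001, Ppargc1b −0.254 and Fabp3 −0.086. With single libraries left out the ranges were −0.063 to 0.103 for Cpt1a, 0.049 to 0.215 for Cpt1b, −0.405 to 0.086 for Ppara, −0.406 to 0.532 for Ppargc1a and −0.214 to 0.288 for Ppargc1b. They were −0.266 to 0.212 for Ucp2, −0.362 to 0.433 for Ucp3, −0.292 to 0.475 for Cd36, −0.082 to 0.625 for Fabp3 and −0.252 to 0.474 for Acsl1. The cause of these changes was not tested.

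No pairing of the samples by replicate number is stated. Deviations of same-numbered libraries correlated across genes at −0.119, 0.0251 and 0.0273, and those of different-numbered libraries at −0.223 to 0.221. With 3 libraries per group these values cannot settle whether samples were paired. With the replicate block, the median log2 fold change of the 33 genes was 0.068. With 3 libraries per group, the median SE of the 33 log2 fold changes was 0.15, and differences as large as that of Angptl4, −0.505, were not called.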
